A study of Apis mellifera carnica with 38 samples.

Results

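Brain and fat body were compared in untreated virgin honey bee queens (V), from which 10 of the 38 RNA-seq libraries of the series were made. They are the 5 brain and the 5 fat body libraries whose labels give the control treatment, one library of each tissue from each of the queens C20, C49, C64, C68 and C77. The study asked how seminal fluid and semen change queens, and its other 28 libraries come from queens injected with Hayes saline (HS), seminal fluid or semen. The V queens were not injected. All queens were of *Apis mellifera carnica* and were sampled at about the same adult age, after rearing from one source colony headed by a queen inseminated with a single drone, so the 5 V queens are sisters. The p-values below set each difference against the spread between libraries of sister queens, and do not cover queens of other colonies. Brains were dissected from partly freeze-dried heads, and a fat body sample was the abdominal cuticle with its lining of fat body, taken after evisceration, so it includes the body wall.

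The insect brain is a tissue of neurons and glia that signals with small transmitters, peptides and gases through ion channels and receptors. The fat body combines the roles of a vertebrate liver and adipose tissue: it stores lipid, glycogen and protein, makes the yolk precursor vitellogenin and other haemolymph proteins, detoxifies, and secretes antimicrobial peptides. In honey bee queens it supplies the yolk for eggs, and the brain directs flight, mating behavior and the release of hormones.

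The brains had between 15061113 and 23227424 reads on genes, and the fat bodies between 16332047 and 29963718. In brains C20 and C49, 34.3% and 25.1% of reads were not aligned, against 4.24% to 5.37% in the other 3 brains, and the share was 3.64% to 5.13% in fat bodies. The study found many reads of Deformed Wing Virus in its libraries, but few or none in most virgin queens. How many of the unaligned reads here were viral was not tested. Levels are given as counts per 1000000 reads on genes after TMM scaling (CPM), always in the order of queens C20, C49, C64, C68 and C77, means as mean ± SD (n = 5 per tissue), and fold changes as brain over fat body on the log2 scale, ± SE. On the plot of distances the first dimension carried 90.1% of the variance and separated the tissues, and the second, with 2.33%, set brains C20 and C49 apart from the other brains. The median distance was 5.84 between brain and fat body of the same queen and 5.75 between those of different queens, against 1.56 between brains and 1.5 between fat bodies.

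**Figure D1:**
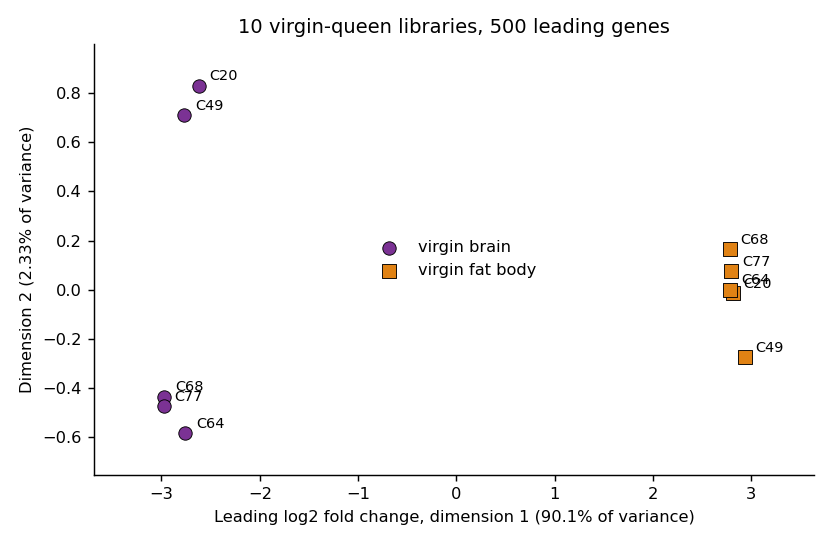
Multidimensional scaling of the 10 virgin libraries, with the leading log2 fold change on both axes, brains and fat bodies as separate symbols and each point named by its queen. The first dimension, with 90.1% of the variance, separates the 5 brains from the 5 fat bodies, and the second separates brains C20 and C49 from the other brains.

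At a few genes that split the queens, the brain and fat body libraries labelled C20, and at fewer of them those labelled C49, did not fall on the same side. *LOC412162*, a gene on chromosome 7 with no annotated role, had 86.6, 0.229, 0.211, 102 and 103 CPM in brains, against 1.12, 0.512, 0.799, 69.4 and 75.4 CPM in fat bodies. It was thus near 0 in both tissues of C49 and C64 and high in both of C68 and C77, but high in the brain and near 0 in the fat body labelled C20. Over the 18 queens of the series with both tissues, 16 fell on the same side in brain and fat body, and the exceptions were C20 and a semen-injected queen, S83, with the opposite arrangement. A search made after this was seen, for genes with a gap of at least 1 on the log2 scale in each tissue and at least 4 queens on each side, found 5 genes. At *LOC100577767* and *LOC102654390* the same 2 queens were the only exceptions, and in all 5 genes the brain of C20 was on the high and its fat body on the low side. *LOC100576592*, which has no annotated role, was low in the fat bodies of all 5 V queens and high in those of all 13 injected queens. The values of this gene that follow are scaled by library size alone, without TMM. In brains it was at 11.9, 7.59 and 8.61 CPM in C64, C68 and C77, but at 122 and 108 CPM in the brains labelled C20 and C49. These 2 lay within the 76.1 to 126 CPM of 11 injected queens, and the remaining injected queens, S83 and SP16, were at 11.1 and 8.69 CPM. The brains labelled C20 and C49 were thus on the side of injected queens at this gene, and 2 brains labelled as injected were on the side of V queens. Brains C20 and C49 were also the V brains with the most unaligned reads, 34.3% and 25.1%. The study reported very few reads of Deformed Wing Virus in most virgin samples, a semen brain and a seminal fluid brain. Whether the level of *LOC100576592* follows the unaligned reads was not tested. At *LOC724398* C20 and C49 were among 7 exceptions, and 11 of the 18 queens fell on the same side, so this gene followed the queens less closely. Whether the brain and fat body labelled C20 or C49 come from the same queen, and whether any of these libraries comes from an injected queen, was not tested. Each of the 10 libraries lay with its labelled tissue on the distances, and without queen C20 the tissue test gave 3586 DEGs (differentially expressed genes) higher and 3636 lower in brain, and without C20 and C49 it gave 3699 and 3633.

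Another limit is set by the annotation. Of the 12332 genes, 2003 lie wholly within the span of other gene models, and 1972 of these were at 0 reads in all 38 libraries, against 70 of the 6993 genes that share no span. Genes such as *Blop*, *TpnT*, *Def2* and *Jhe* are among those at 0, and nothing can be said of their levels here.

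Most genes tested differed in level between the tissues, and about as many were higher as were lower in brain. Of 9082 genes tested with edgeR's quasi-likelihood test, 7380 (81.3%) were DEGs (Benjamini-Hochberg adjusted p under 0.05), of which 3665 (40.4% of genes tested) were higher and 3715 (40.9%) lower in brain. Every count of called list members below is to be read beside these shares. The difference was under 2-fold for 3865 DEGs, or 52.4%, and the median absolute log2 fold change was 0.73 over all genes. With at least 4-fold asked for as well, 1074 genes (11.8%) were higher and 642 (7.07%) lower in brain. At 64-fold or more there were 132 higher and 53 lower. The 5 brains and the 5 fat bodies did not overlap at 6430 genes (70.8%), with the brains above at 35.6% of genes tested and below at 35.2%, and among the 4-fold DEGs they overlapped at 21. Since the tests compare shares of the counted RNA, the direction of small differences depends on the scaling: TMM put the median gene at -0.01, and scaling by library size alone put it at 0.50 and gave 5443 higher and 2000 lower. In brains the 10 genes with most reads took 6.90% to 8.11% of reads, against 18.1% to 22.9% in fat bodies. In samples of whole tissue, fewer cells of a type and less RNA per cell cannot be told apart.

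**Figure D2:**
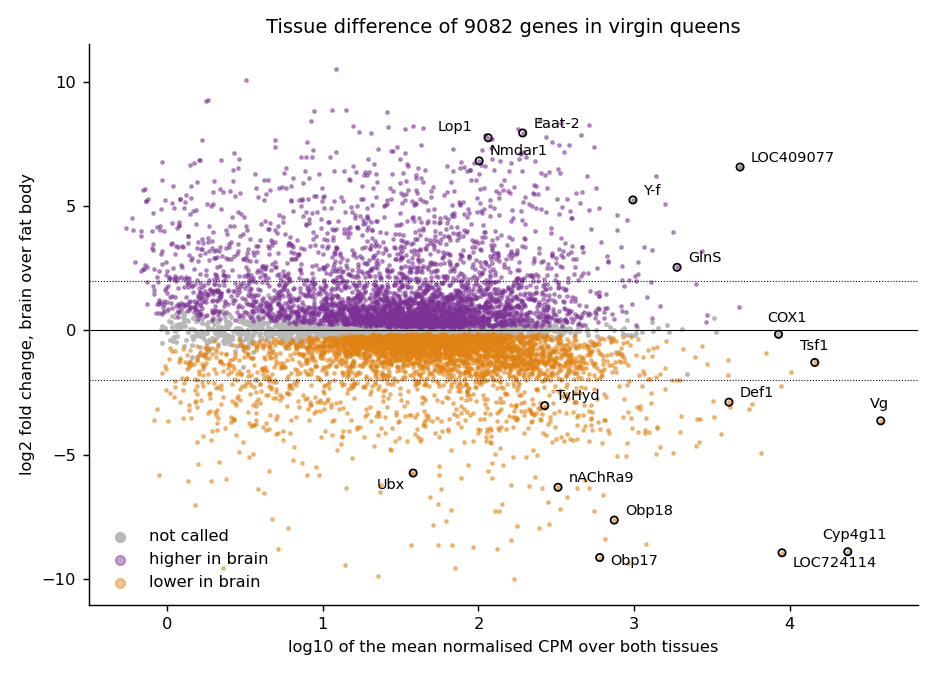
Log2 fold change of brain over fat body (vertical) against the log10 of the mean CPM over both tissues (horizontal) of the 9082 tested genes in virgin queens, with DEGs higher in brain in purple, those lower in brain in orange, genes that were not called in grey and dotted lines at 4-fold. The 3665 DEGs higher and the 3715 lower in brain spread to both sides of 0, and the largest log2 fold changes were 10.51 and -10.02.

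The reads went to different genes in the 2 tissues. In brains the gene with most reads was *LOC409077*, which has no annotated role, with 8472, 8799.7, 9085, 10904 and 10208 CPM in brains, against 104, 88.2, 86.3, 82 and 135 CPM in fat bodies (log2 fold change 6.58 ± 0.20, adjusted p = 1.48e-10). It took 1.13% ± 0.105 of brain reads (SD, n = 5), followed by *Tsf1* with 1.0% ± 0.369, the mitochondrial *COX1* with 0.956% ± 0.0556 and the noncoding RNA *Ancr-1* with 0.749% ± 0.0959. *Ancr-1* had 5248, 7430.5, 6748, 5808 and 6179.7 CPM in brains, against 3533, 2212, 3385, 3303 and 3710.3 CPM in fat bodies, and so was higher in every brain (log2 fold change 0.96 ± 0.16, adjusted p = 0.000192). In fat bodies 5.96% ± 2.32 of reads came from *Vg* and 3.95% ± 0.676 from *Cyp4g11*. *LOC724114* and *LOC413324*, neither of them annotated with a role, followed *Tsf1* among the 5 genes with most fat body reads. *LOC724114* had 98.5, 28.8, 18.6, 23.3 and 11.3 CPM in brains, against 20061, 15145, 15831, 20235 and 17824 CPM in fat bodies (log2 fold change -8.95 ± 0.69, adjusted p = 3.1e-07). Brain C20 was the highest of the brains at this gene, and still far below every fat body. For *LOC413324* the values were 6971, 7675, 2535, 3767 and 3373 CPM in brains and 14160.0, 12636, 16665, 18396 and 15776 CPM in fat bodies (log2 fold change -1.67 ± 0.30, adjusted p = 0.000304), with brains C20 and C49 the highest of the brains.

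Most of the nervous system genes tested were higher in brain, and receptors for fast transmitters were among the largest differences. Of 26 transmitter receptor genes tested, of 27 in the annotation, 24 were higher in brain and 2 lower, with 18 and 2 past 4-fold, beside 40.4% and 40.9% of all genes tested, and their median log2 fold change was 3.38 beside -0.01 over all genes. Some of them, such as *nAChRb1*, *LCCH3* and *LOC408525* with 4, 32 and 47 reads over the 5 fat bodies, passed the filter on low counts only through brains. The count and the median include them and are therefore no result about the receptors as a group. *Nmdar1*, the subunit that every NMDA-type glutamate receptor contains, had 189, 169, 226, 209.7 and 209 CPM in brains, against 1.96, 1.1, 1.84, 1.64 and 2.1 CPM in fat bodies (log2 fold change 6.83 ± 0.15, adjusted p = 1.41e-11). *LCCH3*, named for a subunit of GABA-gated channels in *Drosophila*, had 57.2, 52.3, 64.8, 63.1 and 59.6 CPM in brains, against 0.391, 0.146, 0.36, 0.566 and 0.244 CPM in fat bodies (log2 fold change 7.41 ± 0.17, adjusted p = 1.99e-11). *LOC408525*, the alpha5 subunit of the nicotinic acetylcholine receptor, had 43.4, 58.4, 55, 81.6 and 70.4 CPM in brains, against 0.503, 0.292, 0.52, 0.692 and 0.487 CPM in fat bodies (log2 fold change 6.92 ± 0.23, adjusted p = 3.03e-10). At each of these 3 genes the lowest brain was far above the highest fat body. The serotonin receptor *5-HT1* averaged 284 ± 47.2 CPM in brains and 5.58 ± 2.75 CPM in fat bodies (log2 fold change 5.68 ± 0.33, adjusted p = 3.29e-08). *GluCl*, the glutamate-gated chloride channel, differed less, with 330.2 ± 12.5 CPM in brains and 156 ± 20.2 CPM in fat bodies (log2 fold change 1.08 ± 0.09, adjusted p = 5.59e-07), and its groups did not overlap either.

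Nicotinic receptor subunits went both ways. *nAChRb1* had 21.8, 22.6, 19.6, 24.5 and 25.3 CPM in brains, from 2695 reads in all, against 4 reads over the 5 fat bodies (log2 fold change 8.86 ± 0.32, adjusted p = 4.87e-10). *nAChRa9* had 8.92, 4.36, 8.64, 11.3 and 7.04 CPM in brains, against 689.6, 589, 603, 694 and 629 CPM in fat bodies (log2 fold change -6.31 ± 0.24, adjusted p = 7.39e-10). Its neighbour on chromosome 9, *nAChRb2* (positions 11041574 to 11043715, beside 11044376 to 11046966 for *nAChRa9*, Amel_HAv3.1), had 6.38, 1.83, 3.25, 5.71 and 2.77 CPM in brains, against 221, 236, 223, 255 and 268 CPM in fat bodies (log2 fold change -5.92 ± 0.31, adjusted p = 1.31e-08). These were the 2 receptor genes lower in brain, and every brain was below every fat body at both. Which cells of the fat body samples the reads of the a9 and b2 subunits came from was not tested.

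All 10 voltage-gated channel genes tested were higher in brain, 7 of them past 4-fold, with a median of 2.93. The gene with the largest difference, at 7.22, had 35 reads over the 5 fat bodies and passed the filter on low counts only through brains. *Para*, the sodium channel that carries the action potential, had 432, 517, 489.9, 533 and 516 CPM in brains, against 159.6, 125, 165, 158 and 159 CPM in fat bodies (log2 fold change 1.70 ± 0.10, adjusted p = 1.77e-08). It thus had many reads in the fat body samples as well, and the same held for *LOC100578899* (*Cav1a*), a pore-forming calcium channel subunit with 263 ± 21.9 CPM in brains and 113 ± 22.4 CPM in fat bodies (log2 fold change 1.22 ± 0.13, adjusted p = 5.05e-06). The auxiliary calcium channel subunits differed more. The beta subunit *LOC408430* averaged 735 ± 63.8 CPM in brains and 68.9 ± 7.49 CPM in fat bodies (log2 fold change 3.41 ± 0.11, adjusted p = 1.6e-10), and *LOC408841* (*Cava2d1*) averaged 245 ± 29.4 CPM in brains and 7.92 ± 0.85 CPM in fat bodies (log2 fold change 4.95 ± 0.12, adjusted p = 2.01e-11).

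**Figure D3:**
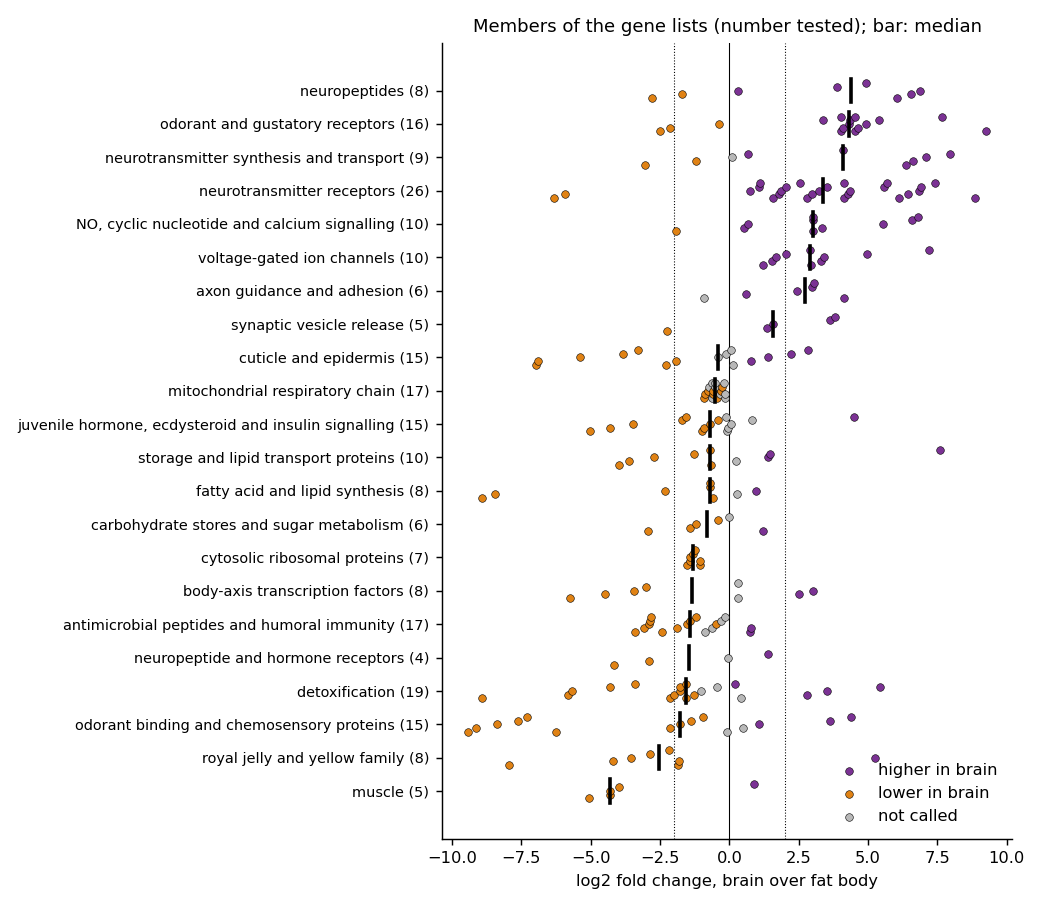
Log2 fold change of brain over fat body (horizontal) of the tested members of each gene list with at least 4 of them, 1 point per gene, purple where higher in brain, orange where lower in brain and grey where not called, with a bar at the median of each list and dotted lines at 4-fold. Channels and transmitter receptors lie mostly above 0, with medians of 2.93 and 3.38, and muscle and ribosomal protein genes mostly below it, with medians of -4.30 and -1.30.

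Genes that make, break down and take up transmitters had a median of 4.10, with 6 of 9 higher in brain and 2 lower. The carriers that clear transmitters from the synapse showed the largest differences. *Eaat-2*, a glutamate transporter, had 277, 351, 399.8, 437 and 450.1 CPM in brains, against 0.559, 1.32, 2.64, 1.76 and 1.22 CPM in fat bodies (log2 fold change 7.95 ± 0.33, adjusted p = 2.06e-09). *Gat-1B* and *Gat-a*, both named as GABA transporters, averaged 372 ± 55 and 124 ± 10.7 CPM in brains, against 2.68 ± 1.31 and 1.25 ± 0.53 CPM in fat bodies, with log2 fold changes of 7.10 and 6.62. *AChE-2*, an acetylcholinesterase, had 482, 601, 462, 480.4 and 453 CPM in brains, against 3.47, 6.0, 5.84, 8.18 and 6.73 CPM in fat bodies (log2 fold change 6.36 ± 0.22, adjusted p = 2.74e-10). *Tbh*, whose enzyme makes octopamine, averaged 27.5 ± 2.77 CPM in brains and 1.57 ± 0.271 CPM in fat bodies (log2 fold change 4.10 ± 0.13, adjusted p = 1.6e-10). *TyHyd*, tyrosine hydroxylase, the first enzyme of dopamine synthesis and in insects also of the tanning of cuticle, was lower in brain, with 58.4, 84.3, 37.9, 57 and 53.9 CPM in brains, against 676, 366, 431, 438 and 465 CPM in fat bodies (log2 fold change -3.03 ± 0.23, adjusted p = 2.21e-07).

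The machinery of vesicle release was represented by 5 genes, of which 4 were higher in brain. *Syt1*, the calcium sensor of release, had 149.9, 181, 169, 173 and 164 CPM in brains, against 12.6, 11.8, 13.6, 14.7 and 14.8 CPM in fat bodies (log2 fold change 3.63 ± 0.08, adjusted p = 1.83e-11). *brp*, named for the *Drosophila* active-zone protein Bruchpilot, averaged 149 ± 22.2 CPM in brains and 10.6 ± 2.15 CPM in fat bodies (log2 fold change 3.81 ± 0.16, adjusted p = 1.75e-09). *Syx1A*, a syntaxin of the membrane fusion machinery, had a smaller difference, with 855 ± 58.5 CPM in brains and 330.2 ± 49.6 CPM in fat bodies (log2 fold change 1.37 ± 0.12, adjusted p = 5.88e-07). The 1 gene lower in brain was *Syt20*, another synaptotagmin, with 24.2, 24.4, 29.3, 29.3 and 29.7 CPM in brains, against 113, 95.3, 137, 163 and 142 CPM in fat bodies (log2 fold change -2.25 ± 0.14, adjusted p = 4.25e-08).

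Intracellular signalling genes followed the channels. Of 10 genes for nitric oxide, cyclic nucleotide and calcium signalling, 9 were higher in brain and 1 was lower, with a median of 3.03. This stands beside 40.4% higher and 40.9% lower of all genes tested. *sGC-alpha1* and *Gycbeta1*, which encode subunits of the guanylyl cyclase that nitric oxide activates, lie near each other on chromosome 6. *sGC-alpha1* had 134, 145, 131, 179.6 and 172 CPM in brains, against 1.17, 1.39, 1.28, 1.57 and 1.41 CPM in fat bodies (log2 fold change 6.80 ± 0.13, adjusted p = 1.05e-11). *Gycbeta1* had 143, 127, 139.9, 202 and 184 CPM in brains, against 1.29, 1.32, 1.8, 1.76 and 1.9 CPM in fat bodies (log2 fold change 6.60 ± 0.18, adjusted p = 7.37e-11). The nitric oxide synthase gene *NOS* averaged 154 ± 19.6 CPM in brains and 19.1 ± 3.44 CPM in fat bodies (log2 fold change 3.01 ± 0.13, adjusted p = 2.43e-09), so the enzyme and its receptor were higher in the same tissue. The kinase genes *Pkc* and *Camkii* averaged 1500.2 ± 192 and 1199 ± 83.1 CPM in brains, against 147 ± 16.7 and 148 ± 19.7 CPM in fat bodies, with log2 fold changes of 3.36 and 3.02. *For*, the cGMP-dependent protein kinase known as foraging, was the gene that differed in the other direction, with 166, 129.7, 138, 127 and 119 CPM in brains, against 521, 446, 529, 499 and 581 CPM in fat bodies (log2 fold change -1.92 ± 0.11, adjusted p = 1.64e-08).

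Several neuropeptide precursors were far higher in brain. Of 8 precursor genes tested, 6 were higher in brain and 2 were lower, beside 40.4% and 40.9% of all genes tested, and the median was 4.41. *Crz*, *Apime-ASTA* and *NPF*, with 5, 30 and 66 reads over the 5 fat bodies, passed the filter on low counts only through brains. *Eth*, with 49 reads over the 5 brains, passed it through fat bodies. The count is therefore no result about the precursors as a group. *Tk*, the tachykinin precursor, had 152, 128, 136, 176 and 165 CPM in brains, against 1.96, 1.54, 1.36, 1.82 and 1.46 CPM in fat bodies (log2 fold change 6.55 ± 0.14, adjusted p = 1.09e-11). *Apime-ASTA*, the allatostatin A precursor, had 38.5, 32.8, 31.3, 48.4 and 42.9 CPM in brains, against 0.112, 0.219, 0.32, 0.252 and 0.634 CPM in fat bodies (log2 fold change 6.89 ± 0.27, adjusted p = 1e-09). *NPF*, the precursor of neuropeptide F, averaged 22 ± 2.18 CPM in brains and 0.71 ± 0.0854 CPM in fat bodies (log2 fold change 4.94 ± 0.12, adjusted p = 2.92e-11). At all 3 genes every brain was above every fat body. *Crz*, the precursor of corazonin, was low, with 3.68, 3.72, 4.43, 4.03 and 3.9 CPM in brains and 5 reads over the 5 fat bodies (log2 fold change 6.03 ± 0.42, adjusted p = 9.26e-08).

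Of 4 peptide receptor genes, 2 were lower in brain and 1 was higher, near the 40.9% and 40.4% of all genes tested. The receptor of corazonin was one of the 2. *Crzr* had 17.7, 12.6, 24.6, 8.64 and 6.13 CPM in brains, against 85.2, 64, 116, 132 and 119 CPM in fat bodies (log2 fold change -2.89 ± 0.37, adjusted p = 2.37e-05). *Akhr*, the receptor through which adipokinetic hormone mobilizes stored fat and sugar, had 2.87, 3.62, 6.83, 3.73 and 3.5 CPM in brains, against 60.4, 66.6, 83.1, 81.7 and 76.9 CPM in fat bodies (log2 fold change -4.16 ± 0.22, adjusted p = 1.13e-08). Both hormones are made in the head and reach the fat body through the haemolymph in insects. *SIFR*, the SIFamide receptor, was higher in brain, with 71.9 ± 9.04 CPM in brains and 27 ± 5.72 CPM in fat bodies (log2 fold change 1.41 ± 0.14, adjusted p = 2.13e-06). The insulin receptor gene *InR-2* had 22.6, 22.1, 21.8, 30.8 and 32.7 CPM in brains, against 32.5, 11.7, 25.4, 34.1 and 30.3 CPM in fat bodies (log2 fold change -0.05 ± 0.25, adjusted p = 0.871), and the tissues overlapped. Among the precursors, *ILP-2*, an insulin-like peptide, was lower in brain, with 7.52, 5.46, 5.61, 4.53 and 4.71 CPM in brains, against 19.1, 27.4, 13.4, 12.7 and 17.2 CPM in fat bodies (log2 fold change -1.69 ± 0.22, adjusted p = 2.42e-05), although 42.6% of its span is shared with other genes. *Eth*, the ecdysis-triggering hormone precursor, was low in both tissues and lower in brain, with 0.42 ± 0.294 CPM in brains and 2.88 ± 1.05 CPM in fat bodies (log2 fold change -2.78 ± 0.46, adjusted p = 0.00015).

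Opsins, the light receptors of the retina, had brain levels that differed widely between queens. *Lop1*, the long-wavelength opsin of the compound eye, had 62.3, 286, 208, 303 and 290.5 CPM in brains, against 1.17, 1.32, 1.28, 0.252 and 1.17 CPM in fat bodies (log2 fold change 7.76 ± 0.54, adjusted p = 1.75e-07). *Uvop*, the ultraviolet opsin, had 20.01, 81.6, 27.2, 33.5 and 104 CPM in brains, against 8.89, 12.9, 12.1, 7.74 and 11.4 CPM in fat bodies (log2 fold change 2.33 ± 0.45, adjusted p = 0.000639). *Lop2*, the long-wavelength opsin found in the ocelli of bees, had 0.757, 110.1, 2.57, 14 and 103 CPM in brains and at most 0.244 CPM in fat bodies, and it was not tested because it failed the filter on low counts. Brain C20 was lowest at all 3 opsins and brains C49 and C77 were highest at *Lop2* and *Uvop*, and how much eye and ocellar tissue each brain sample held was not tested. The summed level of the 4 phototransduction genes was 83.1, 477, 238, 350 and 498 CPM in brains, against 8.12 to 14.3 CPM in fat bodies.

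**Figure D4:**
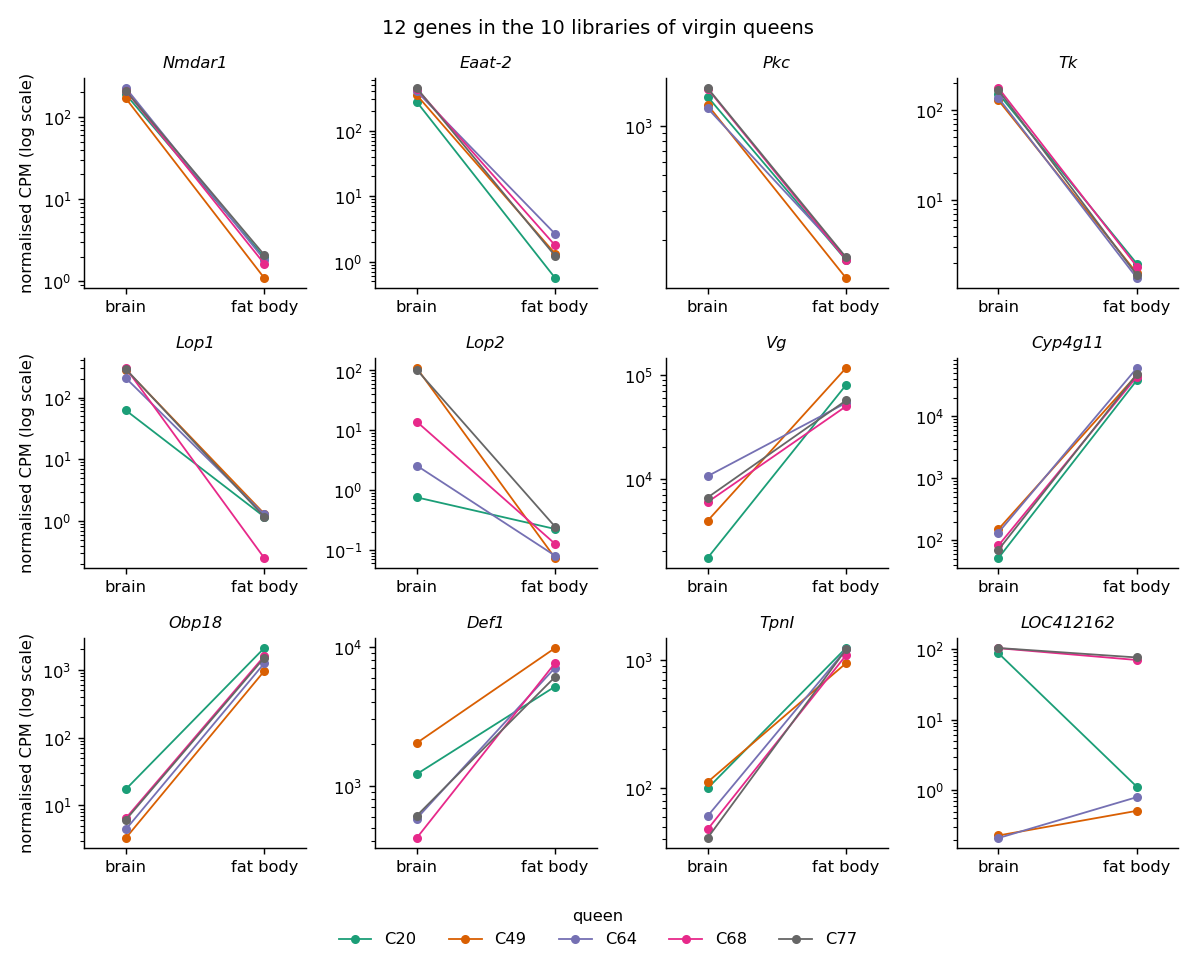
Level (normalised CPM, log scale) of 12 genes in the brain (left) and fat body (right) of each virgin queen, with 1 coloured line per queen. The tissues do not overlap at 11 of the 12 genes, *Lop1* and *Lop2* spread between brains, from 62.3 to 303 and from 0.757 to 110.1 CPM, and at *LOC412162* only the line of C20 crosses from high to low.

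Receptors for smell and taste mostly had few reads. Of 37 odorant and gustatory receptor genes, 16 passed the filter on low counts, most of them only through their reads in brains, so the number of them higher in brain is no result about the family. *Or35* had 10.004, 8.35, 8.31, 11.5 and 11.1 CPM in brains and 4 reads over the 5 fat bodies (log2 fold change 7.65 ± 0.35, adjusted p = 2.95e-09). *Or37*, which lies near it on chromosome 2, had 3.46, 3.53, 3.5, 3.99 and 3.72 CPM in brains, from 431 reads, and 0 reads over the fat bodies, which makes it at least 113-fold higher in brain against a floor of 3 reads over the group. The odorant receptors act in antennal neurons, and these levels in brains were low. *Or115* and *Or170* were higher in fat body, with 0.569 ± 0.198 and 0.741 ± 0.201 CPM in brains, against 3.19 ± 0.845 and 3.23 ± 0.556 CPM in fat bodies (log2 fold change -2.50 ± 0.27, adjusted p = 3.68e-06 for *Or115* and log2 fold change -2.13 ± 0.22, adjusted p = 2.87e-06 for *Or170*).

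Of 15 odorant-binding and chemosensory protein genes tested, of 24 in the annotation, 3 were higher in brain and 10 were lower, beside 40.4% and 40.9% of all genes tested, with a median of -1.79. Some of them, such as *Obp15* with 4 reads over the 5 brains, passed the filter on low counts only through fat bodies. The count is therefore no result about the family. The genes *Obp15*, *Obp17*, *Obp18*, *Obp19* and *Obp21* lie together on chromosome 15 (positions 1932182 to 1961654 of the Amel_HAv3.1 assembly) and were all far lower in brain. *Obp17* had 4.27, 1.01, 1.39, 2.55 and 1.53 CPM in brains, against 1267, 889, 1212, 1353 and 1281 CPM in fat bodies (log2 fold change -9.14 ± 0.40, adjusted p = 2.87e-09). *Obp21* had 7.79, 2.98, 2.02, 4.03 and 2.77 CPM in brains, against 1388, 1390.3, 1034, 1329 and 1306 CPM in fat bodies (log2 fold change -8.38 ± 0.38, adjusted p = 3.84e-09). At *Obp18* and *Obp19* the means were 7.53 ± 5.62 and 1.68 ± 1.46 CPM in brains, against 1483 ± 425 and 252 ± 84.1 CPM in fat bodies, with log2 fold changes of -7.63 and -7.28. Brain C20 was the highest of the brains at these 4 genes. *Obp15* was at 4 reads over the 5 brains and had 14.4, 7.38, 38.5, 51.3 and 26 CPM in fat bodies (log2 fold change -9.43 ± 0.81, adjusted p = 1.04e-06). *Obp10* and *CSP6* were higher in brain, with 226 ± 20.9 and 98.2 ± 34.4 CPM in brains, against 18.2 ± 1.62 and 4.71 ± 0.711 CPM in fat bodies (log2 fold change 3.63 ± 0.09, adjusted p = 3.77e-11 for *Obp10* and log2 fold change 4.38 ± 0.28, adjusted p = 7.77e-08 for *CSP6*).

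Glutamine synthetase and most genes of cell adhesion were higher in brain. *GlnS*, glutamine synthetase, which in glia turns glutamate taken up from synapses into glutamine, had 2886, 3295, 2929.5, 3769.8 and 3239 CPM in brains, against 545, 605, 557, 502 and 554 CPM in fat bodies (log2 fold change 2.54 ± 0.11, adjusted p = 2.22e-09). The other glial gene, *LOC552479* (*draper*), an engulfment receptor that haemocytes also use, had 248, 246, 184, 174 and 166 CPM in brains, against 144, 119, 176, 159.8 and 160.0 CPM in fat bodies (log2 fold change 0.42 ± 0.14, adjusted p = 0.017). Brains C20 and C49 were its highest, and without these queens its log2 fold change was 0.10 with an adjusted p of 0.216, edgeR, and with the queen as a block the adjusted p was 0.0601. In HS queens it was lower in brain, at -0.26, and the virgin minus HS difference was 0.73 (adjusted p = 0.031). Of 6 adhesion and guidance genes, 5 were higher in brain, with a median of 2.72. The sixth was *Nrx-1*, a neurexin, the presynaptic partner of neuroligins, which averaged 16.3 ± 1.17 CPM in brains and 30.7 ± 23.7 CPM in fat bodies (log2 fold change -0.91 ± 0.44, adjusted p = 0.0801). *Dscam*, an immunoglobulin receptor of neurite recognition that insects also use in immune cells, had 557, 652, 463, 719.5 and 718 CPM in brains, against 99.5, 36.1, 79.2, 91.5 and 88.5 CPM in fat bodies (log2 fold change 2.98 ± 0.26, adjusted p = 7.23e-07). The neuroligin *NLG-3*, a postsynaptic adhesion protein, averaged 73.2 ± 13 CPM in brains and 8.88 ± 3.07 CPM in fat bodies (log2 fold change 3.04 ± 0.23, adjusted p = 2.85e-07). *Abscam*, a cell adhesion molecule, had 202, 209, 211, 234 and 238 CPM in brains, against 2.74, 1.9, 2.64, 1.38 and 2.19 CPM in fat bodies (log2 fold change 6.63 ± 0.16, adjusted p = 2.02e-11), and these brains lay within a narrow range.

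Genes for proteins that the fat body secretes and stores were more often lower than higher in brain, by a count that depended on the scaling. Of 10 storage and lipid transport genes tested, 6 were lower in brain and 3 higher, beside 40.9% and 40.4% of all genes tested. Their median was -0.69, and under library size scaling 5 were lower and 4 higher. *Vg*, the yolk precursor vitellogenin, had 1711, 3904, 10527, 5914 and 6550.4 CPM in brains, against 79722, 116340.0, 53575, 49683 and 56579 CPM in fat bodies (log2 fold change -3.64 ± 0.47, adjusted p = 2.12e-05). The tissues did not overlap, although *Vg* spread widely in both, with brain C20 the lowest and brain C64 the highest of the brains. *A4*, an apolipophorin-III-like lipid carrier, had 91.1, 79.6, 88.5, 54.6 and 86.6 CPM in brains, against 1577, 1788, 1009.7, 825 and 1162 CPM in fat bodies (log2 fold change -3.99 ± 0.24, adjusted p = 3.68e-08). The iron carrier transferrin, *Tsf1*, had 8445, 13670.0, 5360.5, 6034 and 8614 CPM in brains, against 11972, 25580.0, 21089, 22923 and 21157 CPM in fat bodies (log2 fold change -1.29 ± 0.29, adjusted p = 0.00136), and brain C49 lay above fat body C20.

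Hexamerins, the storage proteins that insects lay down as larvae, went both ways. *Hex70a* and *HEX70b* averaged 6.85 ± 1.07 and 27.4 ± 2.06 CPM in brains, against 45.5 ± 14.9 and 44.6 ± 4.21 CPM in fat bodies, with log2 fold changes of -2.73 and -0.70. *Hex110* was higher in brain, with 16.9 ± 3.07 CPM in brains and 6.4 ± 1.54 CPM in fat bodies (log2 fold change 1.39 ± 0.17, adjusted p = 1.56e-05). *Vhdl*, the larval very high density lipoprotein, was low in both tissues and higher in brain, with 2.6, 4.95, 1.43, 2.02 and 1.13 CPM in brains, against 0.615, 1.39, 0.68, 0.944 and 0.78 CPM in fat bodies (log2 fold change 1.48 ± 0.42, adjusted p = 0.00649), and the tissues overlapped. The largest difference in the list was that of a fatty acid-binding protein in the other direction. *Fabp_409798* had 547, 735, 515, 619 and 519 CPM in brains, against 1.29, 2.71, 4.68, 3.84 and 2.39 CPM in fat bodies (log2 fold change 7.60 ± 0.32, adjusted p = 1.86e-09).

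Lipid and sugar metabolism lists held genes with very large differences, but their counts depended on the scaling. Of 8 lipid synthesis genes, 6 were lower and 1 higher, beside 40.9% and 40.4% of all genes tested, with a median of -0.70, and under library size scaling 3 were lower and 1 higher. Of 6 carbohydrate genes tested, 4 were lower and 1 higher, with a median of -0.80, and under library size scaling 3 were lower and 2 higher. *Cyp4g11*, of the cytochrome P450 family that in *Drosophila* makes the cuticular hydrocarbons in oenocytes, had 51.9, 151, 134, 82.7 and 70.3 CPM in brains, against 38117, 46395, 59935, 43474 and 47692 CPM in fat bodies (log2 fold change -8.91 ± 0.41, adjusted p = 2.95e-09). The very long chain fatty acid elongase *LOC102655009* had 0.433, 0.55, 1.77, 0.913 and 0.876 CPM in brains, against 319.7, 340.3, 331, 317 and 309.7 CPM in fat bodies (log2 fold change -8.44 ± 0.28, adjusted p = 2.71e-10). At both, every brain was far below every fat body. *LOC552286*, an acetyl-CoA carboxylase-like gene of the first step of fatty acid synthesis, averaged 141 ± 33.7 CPM in brains and 704 ± 119 CPM in fat bodies (log2 fold change -2.32 ± 0.17, adjusted p = 1.7e-07). *Gpdh*, glycerol-3-phosphate dehydrogenase, was higher in brain, with 211 ± 23.4 CPM in brains and 109 ± 9.88 CPM in fat bodies (log2 fold change 0.95 ± 0.09, adjusted p = 1.84e-06).

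Trehalase, *LOC410795*, which splits the blood sugar trehalose into glucose, was higher in brain, with 513, 494, 507, 659.8 and 728 CPM in brains, against 248, 189.7, 276, 274 and 269.7 CPM in fat bodies (log2 fold change 1.21 ± 0.14, adjusted p = 1.04e-05), and 28.9% of its span is shared with other genes. *LOC410953*, the Mlx interactor of sugar sensing, averaged 159.6 ± 29.2 CPM in brains and 428 ± 21.2 CPM in fat bodies (log2 fold change -1.42 ± 0.12, adjusted p = 6.23e-07). *LOC408871*, sorbitol dehydrogenase, had 208, 222, 289.7, 309 and 339 CPM in brains, against 669.7, 984, 412, 343 and 705 CPM in fat bodies (log2 fold change -1.19 ± 0.27, adjusted p = 0.00178). Fat bodies C64 and C68 were close to the brains at this gene, and without queens C20 and C49 its log2 fold change was -0.61 with an adjusted p of 0.0656, edgeR.

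Humoral immunity genes were more often lower than higher in brain, and their summed level was highest in the brains with the most unaligned reads. Of 17 genes tested, 11 were lower in brain and 2 higher, beside 40.9% and 40.4% of all genes tested, with a median of -1.41. Without queens C20 and C49 the counts were 13 and 2 and the median was -2.15. *Def1*, defensin 1, had 1212, 2031, 580.0, 419.8 and 607 CPM in brains, against 5185, 9824, 7095, 7665 and 6091 CPM in fat bodies (log2 fold change -2.89 ± 0.43, adjusted p = 6.78e-05). *Apid1*, which encodes apidaecin, had 875, 1506, 623, 532 and 472 CPM in brains, against 2497, 10113, 6224, 4897 and 4618 CPM in fat bodies (log2 fold change -2.82 ± 0.42, adjusted p = 7.94e-05). Brains C20 and C49 were highest at both peptides, and the summed level of the list was 4739 and 6755 CPM in them, against 2510 to 2946 CPM in the other brains and 13479 to 25647 CPM in fat bodies. The part of the unaligned reads in this difference between brains was not tested. *B-gluc1*, a recognition protein for the glucans of fungal walls, averaged 222 ± 45 CPM in brains and 1873 ± 316 CPM in fat bodies (log2 fold change -3.08 ± 0.18, adjusted p = 1.92e-08). *LOC412897*, named for *Drosophila* defense repressor 1, an inhibitor of the IMD immune pathway, was higher in brain, with 378 ± 33.2 CPM in brains and 222 ± 13.6 CPM in fat bodies (log2 fold change 0.76 ± 0.08, adjusted p = 3.57e-06), with 26.6% of its span shared. The 3 haemocyte genes were called higher in brain with a median of 0.61, but 0 of them were called with the queen as a block and 1 without queens C20 and C49.

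Detoxification genes were lower in brain more often than higher, with 12 lower and 4 higher of 19 tested, beside 40.9% and 40.4% of all genes tested. Their median was -1.58. Among the 4 genes higher in brain were a cytochrome P450 and a conjugating enzyme. *LOC551028* (*CYP6AS13*) had 966, 841, 1284, 1463 and 1405 CPM in brains, against 187, 141, 171, 164 and 192 CPM in fat bodies (log2 fold change 2.80 ± 0.17, adjusted p = 3.46e-08). The UDP-glycosyltransferase *LOC413043* had 771, 424, 758, 658 and 710.4 CPM in brains, against 71.6, 45.9, 56.2, 54.2 and 57.3 CPM in fat bodies (log2 fold change 3.54 ± 0.18, adjusted p = 8.33e-09). *Sod1*, the superoxide dismutase of the cytosol, was lower in brain, with 322 ± 14.6 CPM in brains and 954 ± 54 CPM in fat bodies (log2 fold change -1.57 ± 0.08, adjusted p = 5.87e-09), and its spread was small in both tissues.

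Genes of juvenile hormone synthesis went both ways. *LOC551179* (*CYP15A1*), named for the P450 that makes the epoxide of juvenile hormone in other insects, had 30.5, 26.7, 110.5, 109.7 and 43.6 CPM in brains, against 2.85, 0.95, 1.44, 1.32 and 0.731 CPM in fat bodies (log2 fold change 5.45 ± 0.58, adjusted p = 5.49e-06). Brains C64 and C68 were the highest at this gene, which is expressed in the corpora allata of other insects, a gland attached to the brain, and how much of the gland each sample held was not tested. *LOC724216* (*jhamt*), named for the methyltransferase of the same pathway, had 97, 117, 36.7, 69 and 34.8 CPM in brains, against 827, 431, 1021, 1079.9 and 584 CPM in fat bodies (log2 fold change -3.48 ± 0.41, adjusted p = 1.35e-05). *LOC726981*, a takeout-like gene of the family of hormone-binding proteins, had 58, 125, 55.1, 16.1 and 7.66 CPM in brains, against 1685, 1677, 1665, 1856 and 1733 CPM in fat bodies (log2 fold change -5.04 ± 0.68, adjusted p = 3.98e-05), with brain C77 the lowest and brain C49 the highest of the brains. Of 15 genes for juvenile hormone, ecdysteroid and insulin signalling, 9 were lower in brain and 1 was higher, beside 40.9% and 40.4% of all genes tested, with a median of -0.69, and under library size scaling 6 were lower and 4 higher, with a median of -0.18. The nuclear receptor *E75* averaged 348 ± 40.8 CPM in brains and 694 ± 193 CPM in fat bodies (log2 fold change -0.99 ± 0.17, adjusted p = 0.000241). The 1 gene higher under TMM scaling was *Br-c*, the Broad-Complex transcription factor of the ecdysone response, with 116, 111, 120.2, 139.9 and 120.4 CPM in brains, against 7.77, 3.8, 5.04, 5.28 and 4.73 CPM in fat bodies (log2 fold change 4.51 ± 0.16, adjusted p = 5.11e-10).

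Muscle genes, which mark the body wall that the fat body samples include, were lower in brain with 1 exception. Of 5 muscle genes tested, 4 were lower in brain and 1 higher, with a median of -4.30, and their sum was 85.96 to 252 CPM in brains, against 2902 to 3674 CPM in fat bodies. *TpnI*, troponin I, had 99.4, 111, 60.5, 47.6 and 40.8 CPM in brains, against 1235, 939, 1202, 1083 and 1203 CPM in fat bodies (log2 fold change -3.98 ± 0.29, adjusted p = 1.88e-07). *TpnCIIIa*, *TpnCI* and *TpnCIIa*, troponin C genes, had log2 fold changes of -5.07, -4.31 and -4.30, and *TpnCIIIb* was at 4.68 ± 0.53 CPM in brains and 2.51 ± 0.758 CPM in fat bodies (log2 fold change 0.90 ± 0.20, adjusted p = 0.00148). Brains C20 and C49 had the highest levels of *TpnI*, *TpnCIIIa*, *TpnCI* and *TpnCIIa*, as they had of the immunity list.

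Cuticle and epidermis genes had 7 of 15 tested lower in brain and 4 higher, a share near the 40.9% of all genes tested for those lower, with a median of -0.43 that was 0.066 under scaling by library size alone and -1.30 without queens C20 and C49. *CPR22* and *CPR14*, which encode cuticular proteins with the chitin-binding Rebers-Riddiford sequence, averaged 4.58 ± 2.48 and 56.5 ± 17.9 CPM in brains, against 553 ± 119 and 800.1 ± 123 CPM in fat bodies, with log2 fold changes of -6.90 and -3.82. The apidermin gene *Apd-2* had 3.03, 0.275, 0.211, 0.342 and 0.766 CPM in brains, against 128, 41.8, 111, 141 and 120.4 CPM in fat bodies (log2 fold change -6.98 ± 0.62, adjusted p = 1.31e-06). *Cpap3-d* differed by -1.93, and *CPR3* was higher in brain, with 6.92 ± 1.96 CPM in brains and 1.49 ± 0.948 CPM in fat bodies (log2 fold change 2.23 ± 0.41, adjusted p = 0.000349), as was *CPR5*, with 3.26 ± 0.474 CPM in brains and 0.447 ± 0.136 CPM in fat bodies (log2 fold change 2.84 ± 0.22, adjusted p = 2.12e-07).

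Transcription factors that lay out the body axis were higher in one or the other tissue. *Ubx*, the Hox gene of the posterior thorax and abdomen, had 1.08, 0.734, 1.48, 1.71 and 1.82 CPM in brains, against 104, 52.1, 61, 79.96 and 76.6 CPM in fat bodies (log2 fold change -5.74 ± 0.26, adjusted p = 4.52e-09). *Antp*, a Hox gene of the thorax, averaged 3.84 ± 0.557 CPM in brains and 41.7 ± 6.02 CPM in fat bodies (log2 fold change -3.45 ± 0.13, adjusted p = 8.26e-10). *otd2*, of the orthodenticle family that patterns the head and brain, had 22.2, 30.2, 19.9, 28 and 38.2 CPM in brains, against 3.08, 2.41, 4.4, 3.96 and 2.92 CPM in fat bodies (log2 fold change 3.03 ± 0.21, adjusted p = 1.26e-07). *Kr*, the Krüppel zinc finger gene, was higher in brain as well, with 35.4 ± 2.8 CPM in brains and 6.23 ± 2.3 CPM in fat bodies (log2 fold change 2.50 ± 0.23, adjusted p = 1.13e-06). In all, 2 of 8 such genes tested were higher in brain and 4 lower, and 4 and 4 under library size scaling, beside 40.4% and 40.9% of all genes tested.

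Of 8 royal jelly protein and related yellow genes tested, of 13 in the annotation, 7 were lower in brain, with a median of -2.53. Some of them, such as *Mrjp1* with 39 reads over the 5 brains, passed the filter on low counts only through fat bodies. The count is therefore no result about the family. *Mrjp9* had 6.71, 0.596, 1.01, 1.1 and 0.949 CPM in brains, against 473, 302, 441, 719.6 and 518 CPM in fat bodies (log2 fold change -7.96 ± 0.68, adjusted p = 9.71e-07). *Mrjp7* and *Mrjp8* averaged 16 ± 0.555 and 22.3 ± 3.38 CPM in brains, against 56.2 ± 4.92 and 79.7 ± 13.4 CPM in fat bodies, with log2 fold changes of -1.81 and -1.84. *Mrjp1*, *Mrjp2* and *Mrjp3*, which workers make in the glands of the head, were at most 0.459, 2.7 and 0.216 CPM in any brain. How much gland tissue the brain samples of these queens held was not tested. *Y-f*, the 1 gene of the family higher in brain, had 1794, 1790.1, 1840.0, 2128 and 2027 CPM in brains, against 25.3, 50.2, 73.2, 63.9 and 38 CPM in fat bodies (log2 fold change 5.26 ± 0.29, adjusted p = 1.34e-08).

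Genes that every cell uses also differed. All 7 cytosolic ribosomal protein genes matched by symbol or name were lower in brain, with a median of -1.30, and they stayed lower under scaling by library size alone. Any further genes of this family that carry only LOC symbols are not in this list. *RpLP1*, *Rps14* and *RpL35* averaged 252 ± 27, 153 ± 17.3 and 123 ± 11.2 CPM in brains, against 529 ± 46.1, 379 ± 25.5 and 330.0 ± 21.9 CPM in fat bodies. The respiratory chain genes had a median of -0.53, with 8 of 17 lower in brain and 0 higher, beside 40.9% and 40.4% of all genes tested. With scaling by library size alone 3 were higher and 0 lower, and without queens C20 and C49 3 were lower. *COX1*, of the mitochondrial genome, had 7033, 8489, 8144, 8178 and 8261 CPM in brains, against 8003, 10526, 8224, 9817 and 8017 CPM in fat bodies (log2 fold change -0.15 ± 0.13, adjusted p = 0.308), and its sign turned under library size scaling, at 0.35.

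The 3 clock genes were lower in brain by similar amounts. *Per* had 104, 90.5, 73.1, 92.4 and 84.2 CPM in brains, against 177, 114, 155, 155 and 172 CPM in fat bodies (log2 fold change -0.80 ± 0.13, adjusted p = 9.59e-05). *Cry2*, the cryptochrome partner of period in bees, averaged 17.1 ± 3.05 CPM in brains and 32.9 ± 6.82 CPM in fat bodies (log2 fold change -0.95 ± 0.16, adjusted p = 0.000209), and *LOC410253*, vrille, had a log2 fold change of -0.82 with 73.3% of its span shared. *Mblk-1*, named for the large Kenyon cells of the mushroom body, was lower in brain, with 690.3, 751, 729.7, 830.3 and 755 CPM in brains, against 1148, 914, 1074, 1007 and 1042 CPM in fat bodies (log2 fold change -0.47 ± 0.09, adjusted p = 0.000547), and its sign turned under library size scaling, at 0.042. The germline genes *nanos* and *aub* were both higher in brain, with 60.3 ± 5.97 and 51.7 ± 1.03 CPM in brains, against 26.4 ± 1.92 and 36.2 ± 7.51 CPM in fat bodies (log2 fold change 1.19 ± 0.08, adjusted p = 7.15e-08 for *nanos* and log2 fold change 0.52 ± 0.12, adjusted p = 0.00147 for *aub*).

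The shares called by class and length of gene are a description, with no test. Of 505 long noncoding RNA genes tested, 49.3% were higher in brain and 32.1% lower, with a median of 0.42, against 39.8% and 41.5% of 8541 protein-coding genes, with a median of -0.02. At 4-fold or more the shares were 24.2% and 13.3% of long noncoding RNA genes, against 11.04% and 6.66% of protein-coding genes. Protein-coding genes at least 4-fold higher in brain had a median span of 10.6 kb, those at least 4-fold lower 5.63 kb and all tested 4.28 kb. The counts cover whole genes with their introns, and what part unspliced RNA has in these shares was not tested. Few of the genes tested were at the floor in a tissue: 20 had at most 3 reads over the 5 fat bodies and 4 had at most 3 reads over the 5 brains.

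Between queens the 2 tissues varied by similar amounts for most genes. The common biological coefficient of variation was 0.176 over brains and 0.160 over fat bodies, and without queens C20 and C49 it was 0.128 and 0.125. Among genes of at least 50 CPM, the median SD of log2 CPM was 0.123 over brains and 0.140 over fat bodies, but 29 genes had an SD over 1 in brains, against 3 in fat bodies. *LOC412162*, described above, was one of the 29. *LOC113218789* had 5.03, 155, 9.49, 17.8 and 185 CPM in brains, against 2.12, 2.71, 2.16, 2.08 and 2.14 CPM in fat bodies (log2 fold change 5.06 ± 1.08, adjusted p = 0.00121). *LOC406105* had 3.51, 148, 74.1, 31.1 and 6.35 CPM in brains, against 7.83, 3.8, 4.04, 3.59 and 6.34 CPM in fat bodies (log2 fold change 3.35 ± 0.91, adjusted p = 0.00577). Brain C49 was high at both, with C77 at the first and C64 at the second, and each lost its call in some fits. That of *LOC113218789* was lost with limma-voom, at 3.82, and that of *LOC406105* with limma-voom, the queen as a block and the lane as covariate, at 2.30, 2.41 and 2.81. With the block and without queens C20 and C49 both were lost, at 4.25 and 2.56.

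In fat bodies the widest spreads were at *LOC411564*, *LOC552024* and *LOC408299*. *LOC411564* had 352, 449, 429, 426 and 305 CPM in brains, against 4.53, 6.73, 4.24, 4.03 and 276 CPM in fat bodies (log2 fold change 2.72 ± 1.21, adjusted p = 0.0579). Fat body C77 was at the level of the brains, and without it the log2 fold change was 6.34 with an adjusted p of 1.92e-09, edgeR. *LOC552024* and *LOC408299* had 73, 114, 27.7, 15.4 and 50.5 and 159, 132, 48.7, 29.4 and 139 CPM in fat bodies, and both kept clear of the brains, with log2 fold changes of -2.81 and 2.07.

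To see which tissue differences held in other queens, the same comparison was made in the 5 HS queens, which share no library with the V queens. Of 8837 genes tested in HS queens, 7306 (82.7%) were DEGs, with 3691 higher and 3615 lower in brain. The V DEGs tested in both numbered 7193, and 6603 of them (91.8%) were called in the same direction in HS queens, 24 in the opposite direction and 566 not at all, the shared genes being 90.5% of the HS DEGs. At 4-fold or more, 1617 of 1628 V DEGs (99.3%) were called in the same direction in HS queens, and 2 in the opposite one. These 2, *LOC411907* at -2.12 in V queens and 1.28 in HS queens and *LOC725158* at -2.54 and 1.01, have no annotated role. The median absolute difference between the V and HS log2 fold changes was 0.17. In V fat bodies 3.64% to 5.13% of reads were not aligned, against 53.4% to 68.4% in HS fat bodies, and the part of this difference in what follows was not tested.

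**Figure D5:**
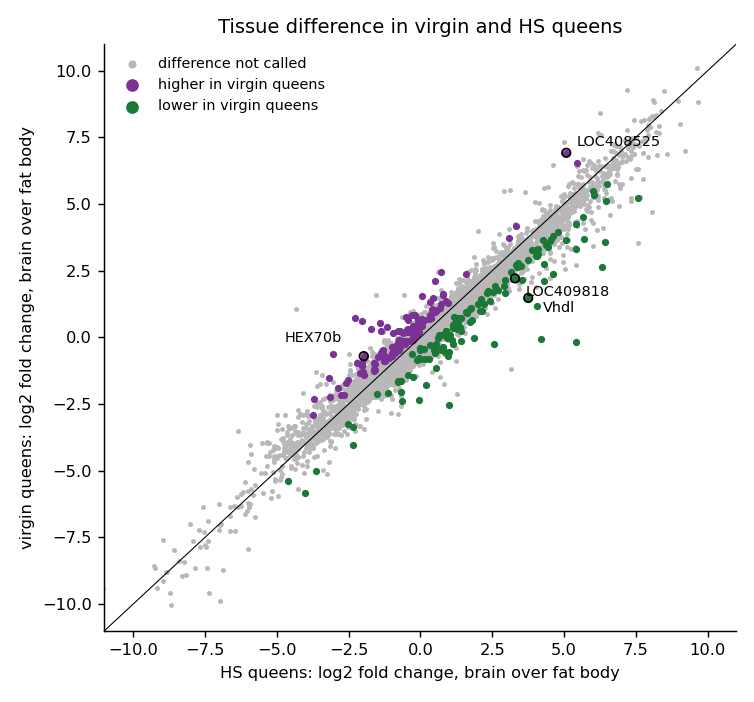
Log2 fold change of brain over fat body of each gene tested in both groups, in V queens (vertical) and HS queens (horizontal), with genes whose difference passed the interaction test in purple (higher in V queens) or green (lower in V queens) and a line at equal values. Most genes lie close to the line, with a median absolute difference of 0.17, and 248 of the 9142 genes tested for the interaction passed.

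The tissue difference itself differed between V and HS queens at 248 of 9142 genes (2.71%) by the interaction test in edgeR, being more toward brain in V queens at 121 and less so at 127. The count depended on the fit: it was 578 with DESeq2, 116 with the queen as a block, 111 without queen C20, 256 without C20 and C49 and 733 without V fat body C49. *HEX70b* had the smallest p, with a virgin minus HS difference of 1.32 (adjusted p = 5.42e-07). It averaged 27.4 ± 2.06 CPM in V brains and 44.6 ± 4.21 CPM in V fat bodies. In HS queens it had 22.5 to 25.9 CPM in brains and 83.9 to 102 CPM in fat bodies. The V values were scaled among the V libraries alone, and the HS values together with the V libraries. CPM of the 2 groups, here and below, are thus not on one scale. As scaled, the fat bodies lay further apart than the brains, and which tissue differed between the groups was not tested. *LOC550955*, a putative gamma-glutamylcyclotransferase, had a difference of 0.81 (adjusted p = 0.00106), with 122 ± 11.2 CPM in V brains and 309 ± 26.8 CPM in V fat bodies, and 108 to 121 and 436 to 552 CPM in HS brains and fat bodies. *LOC411408*, with no annotated role, had a difference of 0.70 (adjusted p = 0.00106).

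Among the genes less toward brain in V queens, *LOC724612*, with no annotated role, had opposite signs in the 2 groups of queens. Its log2 fold change was -0.43 ± 0.10 (SE) in V queens and 0.73 in HS queens, a difference of -1.12 (adjusted p = 0.000629), although under library size scaling the V value was 0.076. *LOC726180*, annotated without a role, was at -0.71 in V queens and 0.97 in HS queens, a difference of -1.64 (adjusted p = 0.00106), with 24.7, 31.4, 30.6, 32.6 and 29.2 CPM in V brains, against 54.3, 30.3, 55, 53.5 and 50.5 CPM in V fat bodies. *LOC409818* was at 2.21 in V queens and 3.29 in HS queens, a difference of -1.03 (adjusted p = 0.00106), with 81.7 to 97.5 CPM in HS brains and 8.57 to 10.8 CPM in HS fat bodies. As scaled, the HS fat bodies were further from the V fat bodies at each of these genes than the HS brains were from the V brains. Which tissue differed between the groups was not tested.

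Of the neuronal genes described above, *LOC408525* had a larger tissue difference in V queens, by 1.89 (adjusted p = 0.00267), and *Syt1*, *brp* and *GluCl* smaller ones, with virgin minus HS differences of -0.60, -0.75 and -0.64. *LOC408525* had 0.503, 0.292, 0.52, 0.692 and 0.487 CPM in V fat bodies, against 1.37 to 2.62 CPM in HS fat bodies. *Vhdl* was less toward brain in V queens, with a difference of -2.24 (adjusted p = 0.0354), with 2.6, 4.95, 1.43, 2.02 and 1.13 CPM in V brains, against 8.36 to 16.1 CPM in HS brains. At both genes the V and HS values were scaled separately, as described above.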

How the data were processed

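RNA from brains and fat bodies was sequenced on an Illumina HiSeq as single-end reads. The authors trimmed reads with cutadapt 1.8.3, aligned them to the Amel_HAv3.1 honey bee genome with HISAT2 2.1.0 and deposited raw counts of reads per gene from HTSeq 0.9.1, with no normalization. The strand setting of the counting is not given in the sources used here. Each gene was counted over its whole span, and reads that fit several genes were counted for none. Rows that name no gene were left out of tests and library sizes; in virgin libraries they held the reads other than the 49.1% to 75.0% counted on genes.

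Tests were run in R 4.3.3 with edgeR 4.0.16: filterByExpr with a minimum count of 20, TMM scaling, robust quasi-likelihood tests and Benjamini-Hochberg adjustment, with an adjusted p under 0.05 as the threshold and a stricter call at 4-fold. Only the 10 virgin libraries entered the tissue test, without a block, and 20 libraries the interaction with HS queens. The labels pair brain and fat body, since the queen code marks one animal. At the genes that split the queens the libraries labelled C20 went against this pairing, as reported above. Those labelled C49 did so only at *LOC100576592*, whose fat bodies split by injection, and at *LOC724398*, which followed the queens less closely. The correlation between brain and fat body in their deviations from the tissue means was -0.09, -0.02, 0.08, 0.15 and 0.09 in C20, C49, C64, C68 and C77. Alternatives were DESeq2 1.42.0, limma-voom (limma 3.58.1), other scalings and filters, the queen as a block, the sequencing lane as a covariate, all 38 libraries together, queens C20 and C49 left out, and each library left out in turn. Leaving out queen C20, leaving out C20 and C49 in the interaction, and a block combined with left-out queens, were added after the data were seen.

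The steps were tested on simulated data in which few genes changed, as many up as down, and all others kept the same level in both tissues. Every gene had a dispersion of 0.03. In the real tissue test 81.3% of genes were DEGs, so the simulation does not cover scaling where most genes differ, and its rates need not hold here. Over 9038 genes, 59.7%, 95.5% and 97.0% of genes changed by 1.5, 2 and 4-fold between tissues were called, with 6.67% of calls false. For the interaction, over 9031 genes, 22.4%, 80.6% and 98.5% were called, with 4.29% false.

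The members and the gene lists were chosen with earlier results of these data known. Genes were named by rule: the largest DEGs with a gene name, those with most reads, the 4 members of each list with the highest mean level and the 2 strongest against its direction, markers of cell types, the 3 smallest interaction p in each direction and the largest spreads. Of 143 such genes the text leaves out 25, 1 of them because it is not reported here. *nAChRb1*, *Crz*, *Tbh*, *Gycbeta1*, *NOS*, *Or37*, *Obp15* and *Nrx-1*, the other genes that split the queens (*LOC100576592*, *LOC724398*, *LOC100577767* and *LOC102654390*) and *LOC411907* and *LOC725158* were named after their values were seen. Gene names come from the RefSeq table for this assembly and from names used in the study. Paralogs such as the royal jelly protein and odorant-binding protein genes may share reads.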

Additional observations from a re-analysis of the deposited data

Results flagged for a closer look

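Among 263 groups of 5 libraries of the named genes, 20 had 1 library far from the other 4, by a gap of more than 0.71 of the group's range. For normally distributed values chance gives about 1 in 20 groups. That rate need not hold here, since the values were CPM and some genes were named for their spread. Brain C20 was the far library 6 times, at *Mrjp9* (6.71 CPM), *Obp18* (17.3 CPM), *Obp19* (4.22 CPM), *Apd-2* (3.03 CPM) and *LOC724114* (98.5 CPM), where it was the highest of the brains, and at *COX1* (7033 CPM), where it was the lowest. Fat body C49 was the far library 6 times as well, as the lowest at *Ancr-1* (2212 CPM), *Syx1A* (243 CPM), *Para* (125 CPM), *Pkc* (117 CPM) and *LOC726180* (30.3 CPM) and as the highest at *LOC113218789* (2.71 CPM). Brain C49 was highest at *AChE-2* (601 CPM), brain C64 was highest at *Akhr* (6.83 CPM) and lowest at *Obp10* (189.6 CPM), and brain C68 was highest at *aub* (53.5 CPM). Fat body C20 was highest at *Or115* (4.64 CPM), fat body C77 was highest at *LOC411564* (276 CPM), fat body C64 was lowest at *Obp21* (1034 CPM) and fat body C68 was lowest at *Lop1* (0.252 CPM).

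For 13 named genes the tissue difference differed between V and HS queens by the interaction test, with the virgin minus HS difference given on the log2 scale. It was positive at *LOC408525* (1.89), *HEX70b* (1.32), *LOC550955* (0.81), *LOC552479* (0.73) and *LOC411408* (0.70). It was negative at *Vhdl* (-2.24), *LOC726180* (-1.64), *LOC724612* (-1.12), *LOC409818* (-1.03), *brp* (-0.75), *GluCl* (-0.64), *aub* (-0.61) and *Syt1* (-0.60).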

How the results depend on the processing

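The numbers of DEGs in V queens moved by less than 1.5 times under every alternative run, except that library sizes alone gave 2000 lower in brain (2320 in HS queens) and that 20 reads in every library left 651 4-fold DEGs higher in brain. With the queen as a block there were 7266 DEGs, and the block ended no other call of a named gene than those of *LOC406105* and *LOC552479*. With each V library left out in turn, the DEGs ranged from 7174 to 7397, those higher from 3591 to 3699, those lower from 3583 to 3710, the 4-fold higher from 1064 to 1109 and the 4-fold lower from 642 to 687. In HS queens the ranges were 7147 to 7373, 3619 to 3734 and 3528 to 3639.

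The interaction count depended most on the setting: DESeq2 gave 578 genes (241 higher and 337 lower in V queens), the queen as a replicate block 116 (49 and 67), leaving out queen C20 111 (53 and 58), leaving out C20 and C49 256 (91 and 165), limma-voom 79 lower and library sizes alone 221 higher. With 1 library left out it was 132 (64 and 68, without HS brain 53) to 733 (322 and 411, without V fat body 49). The 6 genes named by the smallest p were called in all 180 values.

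The coefficient of variation ranged from 0.167 to 0.183 over brains and from 0.131 to 0.170 over fat bodies with 1 library left out, and was 0.128 and 0.125 without queens C20 and C49.

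Of 3089 values for 130 named genes, 3049 kept direction and call, 14 lost the call, 10 gained it (*LOC411564* and *Nrx-1*) and 16 turned. Of these, 3 turned with library sizes alone, *COX1* to 0.35, *Mblk-1* to 0.042 and *LOC724612* to 0.076, and the rest were of *InR-2*, which was not called. *InR-2* was at 0.0019 with limma-voom, 0.46 with library sizes alone, 0.026 with 20 reads in every library, 0.0103 with the block, 0.016 with all 38 libraries, 0.028 with the lane, 0.077 without queen C20 and 0.14 with the block as well, and it ranged from -0.23 to 0.051 with 1 library left out. The cuticle list's median turned to 0.066 with library sizes alone. Calls were lost at *LOC113218789* with limma-voom, at *LOC406105* with limma-voom, the block and the lane, at *LOC408871* without queens C20 and C49, at *LOC552479* with the block and without C20 or both of these queens, at *LOC724612* with all 38 libraries and at *LOC726180* with library sizes alone. The causes were not tested.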
